A study of Mus musculus with 6 samples.

Results

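Il17rd, Flrt1, Flrt2, Flrt3, Shisa2, Lrig1, Lrig2, Lrig3, Fgfrl1 and Fgfbp1 encode membrane and secreted proteins that act on FGF receptors or on other receptor tyrosine kinases. They were taken by gene symbol as 10 of the 23420 genes in the count tables, and all 10 passed the filter on low counts that left 13087 genes for testing. The samples were lacrimal gland epithelium of mouse embryos at E14.5, when the bud enters the periocular mesenchyme, isolated by laser capture. Control embryos carried Le-Cre, a transgene expressing Cre in the surface ectoderm of the eye, while Pea3 TKO embryos carried Le-cre together with Pea3-/-, Ermfl/fl and Er81fl/fl. Pea3 (Etv4) was therefore missing from the whole embryo, whereas Erm (Etv5) and Er81 (Etv1) were deleted only where Cre was active. The sample titles call the controls WT, and the methods of the study also name Le-Cre mice heterozygous for Pea3, Erm and Er81 as controls. Both groups had a mixed strain background and 3 samples each (n = 3 for every mean ± SD). The labels do not say whether each sample was a single embryo. The p-values weigh the group difference against the spread between these samples, which may be partly technical.

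FGF ligands bind their receptors together with heparan sulphate and activate the Ras-MAPK cascade, which switches on the Pea3 factors and, in the same cells, a set of inhibitors that limit the signal. Some of these modulators sit in the plasma membrane and share the spatial pattern of FGF signaling in embryos, a relation known as synexpression; Il17rd, also called Sef, and Flrt3 are the classic examples. The lacrimal gland bud depends on Fgf10 from the mesenchyme acting on Fgfr2b in the epithelium.

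Libraries held 14194775 to 17860140 counts, and 3 counts corresponded to 0.17 to 0.21 CPM (counts scaled to a common library size after TMM normalization). Values of single libraries are given below in the order of the replicate numbers. The targeted genes fell in Pea3 TKO, with a log2 fold change of -2.95 for Etv4, -2.93 for Etv5 and -1.74 for Etv1. All 10 epithelial markers were tested and 8 were higher in Pea3 TKO. For this and the other marker lists, the shares over all tested genes were 13.6% higher and 11.3% lower. The adhesion molecule Epcam did not pass, at 1324 to 1500 CPM in Control and 1201 to 1339 in Pea3 TKO. The summed level of 7 endothelial markers was at most 7.76 CPM in any library, that of 6 muscle markers at most 3.99 and that of 7 macrophage markers at most 20.5. The endothelial markers Tie1 and Emcn were at 0 in all 6 libraries. Of 12 mesenchyme markers 2 were called higher and 1 lower in Pea3 TKO, and their sum ran from 354 to 403 CPM in Control and from 337 to 927 in Pea3 TKO, with Foxc1 and Foxc2 holding most of the Control sum. Col3a1, a fibrillar collagen of mesenchyme, stood at 2.99, 6.42 and 53.3 CPM in the controls and at 119.5, 213.3 and 1.997 CPM in the mutants. Erythroid markers summed to 46.9 to 197 CPM in Control and 54.6 to 381 in Pea3 TKO. Hba-a1 and Hba-a2 were at 0 in all 6 libraries, but Hbb-y had 28.3 to 88.1 CPM in Control and 44.6 to 204 in Pea3 TKO. Neural crest and glia markers summed to 209 to 309 CPM in Control and 104 to 119 in Pea3 TKO, nearly all of it Erbb3. Of the 7 genes on this list 4 were tested. Erbb3 was lower in Pea3 TKO and the other 3 did not pass. Of 10 markers of conjunctiva and epidermis 9 were called higher, with a sum of 1182 to 2389 CPM in Control and 6601 to 8914 in Pea3 TKO. Y-linked genes summed to 136 to 175 CPM in every Control library and to 139 CPM in Pea3 TKO replicate 3, but to at most 0.44 CPM in Pea3 TKO replicates 1 and 2, where Xist was present. Embryo sex therefore differed between the groups, and the part that sex or mesenchyme content had in the results below was not tested except where stated.

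The modulators moved in both directions. By the edgeR quasi-likelihood test at an adjusted p threshold of 0.05, 3 of the 10 were lower in Pea3 TKO (Il17rd, Shisa2 and Flrt3), 2 were higher (Lrig3 and Lrig1), and the other 5 did not pass. Over all tested genes 25.0% passed, 11.3% lower and 13.6% higher. In 6 of the 10 the samples of the groups did not overlap, against 43.9% of all tested genes. The median log2 fold change of the 10 was 0.27, beside 0.01 over all tested genes. The number of modulators called higher changed when single libraries were left out. It was 0 without Control replicate 2, without Pea3 TKO replicate 1 or without Pea3 TKO replicate 2, and 1 without Pea3 TKO replicate 3. It stayed at 2 without Control replicate 1 or Control replicate 3. All tested genes that passed numbered 3268 with all 6 libraries. They numbered 1963 without Control replicate 2, 2267 without Pea3 TKO replicate 1 and 2072 without Pea3 TKO replicate 2. Without Control replicate 1, Control replicate 3 and Pea3 TKO replicate 3 they numbered 3344, 1948 and 3003. The number of modulators called lower was 2 without Control replicate 2 or Control replicate 3 and 4 without Control replicate 1. With Y-linked expression as a covariate, Il17rd was the 1 modulator called lower and 0 were called higher.

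**Figure D1:**
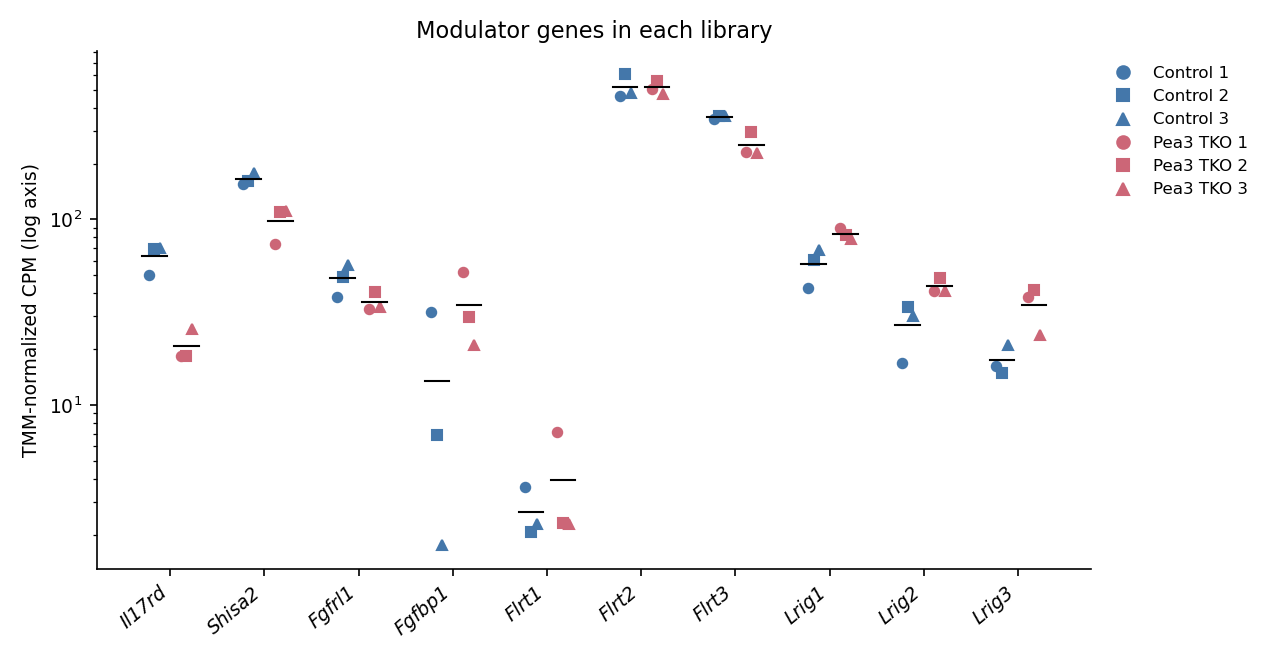
TMM-normalized CPM (log axis) of the 10 modulator genes in each library; symbols give the replicate, colours the group (blue Control, red Pea3 TKO) and bars the group mean. Il17rd lay at 50.1 CPM or more in Control and 25.7 or less in Pea3 TKO, while Flrt2 overlapped between the groups at 463 to 607 CPM.

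Il17rd (ENSMUSG00000040717; GRCm38 chromosome 14, 27038941 to 27107286, plus strand) encodes a single-pass receptor of the interleukin 17 receptor family that binds FGF receptors and restrains the passage of their signal through ERK. The controls had 50.1, 69.5 and 70.3 CPM, and the mutants had 18.4, 18.5 and 25.7. All 3 mutant samples lay below all 3 controls, and the highest mutant sample was the Y-positive replicate 3. The mean fell from 63.3 ± 11.5 to 20.8 ± 4.2 CPM, a log2 fold change of -1.60 (SE 0.20, edgeR adjusted p = 0.000685), which left 33.0% of the control level. This was the largest change in either direction among the modulators that passed the test. Across the fits without 1 library it stayed between -1.78 and -1.52, and it passed the threshold in all 6. With Y-linked expression as a covariate, the log2 fold change was -1.30 (adjusted p = 0.0302). In the Y-positive libraries alone, 3 Control against 1 Pea3 TKO, the value was -1.29 (adjusted p = 0.0564), with the lone mutant sample assumed to vary like the controls. In bulk samples such as these, fewer cells that express a gene and less RNA per cell cannot be told apart.

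Shisa2 (ENSMUSG00000044461; chromosome 14, 59625308 to 59631660, plus strand) encodes a protein of the endoplasmic reticulum that holds back immature FGF receptors and Frizzled receptors and so lowers their number at the cell surface. Its level was 155, 162 and 178 CPM in the controls and 73.5, 110.0 and 110.5 CPM in the mutants. The groups did not overlap, and Pea3 TKO replicate 1 was the lowest library. Shisa2 fell from 165 ± 12 to 98.0 ± 21.2 CPM, a log2 fold change of -0.75 (SE 0.16, edgeR adjusted p = 0.00987). It passed in all 6 fits without 1 library, with values from -0.85 to -0.58. The call was lost with the Y-linked covariate (log2 fold change -0.59, adjusted p = 0.206) and in the Y-positive libraries alone (-0.57, adjusted p = 0.109).

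The FLRT genes encode transmembrane proteins with leucine-rich repeats and a fibronectin type III domain, which bind FGF receptors in the same cell and Unc5 proteins or latrophilins on neighbouring cells. Flrt3 (ENSMUSG00000051379; chromosome 2, 140650914 to 140671469, minus strand) is the member best known as a positive modulator of FGF signaling. It had 348, 360 and 363 CPM in the controls and 232, 295 and 228 CPM in the mutants. Every mutant sample lay below every control, and the controls differed little, with a coefficient of variation of 2.19%. Flrt3 fell from 357 ± 8 to 252 ± 37 CPM, a log2 fold change of -0.50 (SE 0.13, edgeR adjusted p = 0.0180). The adjusted p was 0.0625 without Control replicate 2, 0.0616 without Control replicate 3 and 0.0692 with the Y-linked covariate, at log2 fold changes of -0.50, -0.49 and -0.66. In the Y-positive libraries alone Flrt3 passed, at -0.63 (adjusted p = 0.0482).

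Flrt2 (ENSMUSG00000047414; chromosome 12, 95692226 to 95785215, plus strand) has the same domain layout and did not pass the test. The controls had 463, 607 and 481 CPM and the mutants had 508, 559 and 478. The groups overlapped fully, with means of 517 ± 78 and 515 ± 41 CPM. The log2 fold change was -0.005 (SE 0.13, 95% interval -0.30 to 0.29, edgeR adjusted p = 0.984). Flrt1 (ENSMUSG00000047787; chromosome 19, 7092001 to 7105729, minus strand) was scarce, at 2.06 to 3.61 CPM in Control. In Pea3 TKO it had 7.18, 2.31 and 2.29 CPM, so that replicate 1 alone set the higher mean. The log2 fold change of Flrt1 was 0.57 (95% interval -0.78 to 1.91, edgeR adjusted p = 0.536), and it turned to -0.20 without Pea3 TKO replicate 1. Flrt1 lies within Macrod1 and Flrt3 within Macrod2, each on the opposite strand to its host and with 0 exonic bases in common.

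The ratio of Flrt3 to Flrt2 counts within a library does not depend on how libraries are scaled. It was 0.75, 0.59 and 0.75 in the controls and 0.46, 0.53 and 0.48 in the mutants. Every mutant ratio was below every control ratio, with means of 0.70 ± 0.09 and 0.49 ± 0.04; this pair was chosen after its values were seen and was not tested. Per length of exon, Flrt3 made up 52.3 ± 3.4% of FLRT expression in Control and 43.3 ± 1.9% in Pea3 TKO. Flrt2 went from 47.4 ± 3.5% to 56.1 ± 1.6%, and Flrt1 was at most 1.06% in any library.

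**Figure D2:**
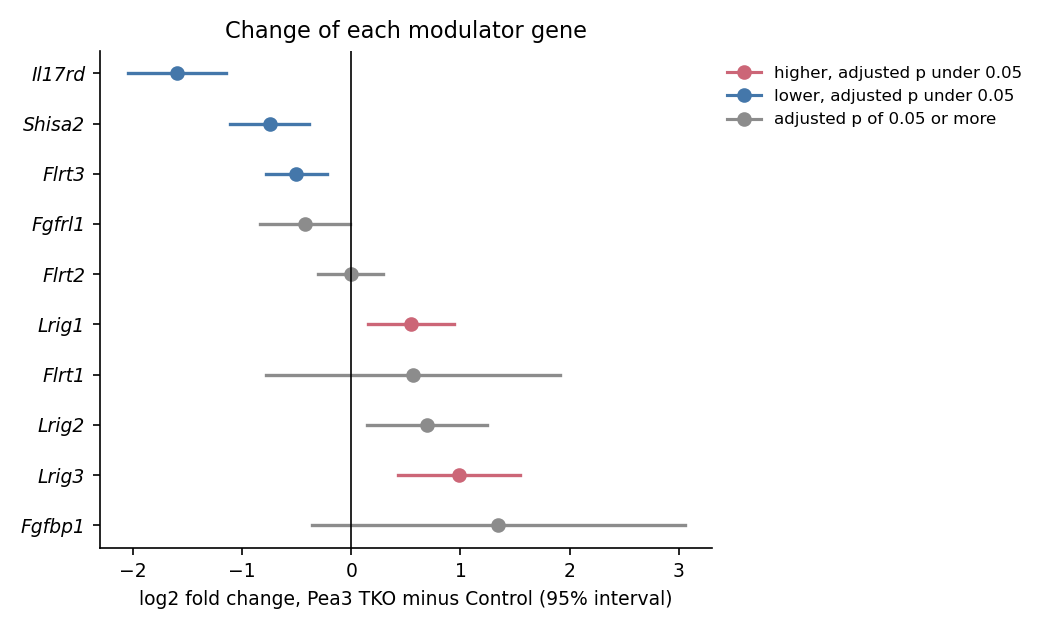
Log2 fold change (Pea3 TKO minus Control, x axis) of each modulator gene with its 95% interval from the edgeR fit; colour marks the genes that passed an adjusted p threshold of 0.05. Il17rd (-1.60), Shisa2 (-0.75) and Flrt3 (-0.50) lie to the left of 0, Lrig1 (0.55) and Lrig3 (0.99) to the right, and the intervals of Flrt2, Flrt1 and Fgfbp1 include 0.

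The LRIG genes encode transmembrane proteins with leucine-rich repeats and immunoglobulin domains. Lrig1 is known as a feedback inhibitor that promotes the degradation of receptors of the Egfr family and of Met, and as a marker of quiescent stem cells in several epithelia. Lrig3 (ENSMUSG00000020105; chromosome 10, 125966168 to 126015359, plus strand), which has been linked to FGF receptor signaling in the neural crest, was called higher. It had 16.2, 14.9 and 21.1 CPM in the controls and 38.1, 41.9 and 23.7 CPM in the mutants. The groups did not overlap, but Pea3 TKO replicate 3, the Y-positive library with little Col3a1, lay close to the highest control. Lrig3 rose from 17.4 ± 3.3 to 34.6 ± 9.6 CPM, a log2 fold change of 0.99 (SE 0.25, edgeR adjusted p = 0.0189). Its adjusted p was 0.0749 without Control replicate 2 (log2 fold change 0.89), 0.0656 without Pea3 TKO replicate 1 (0.91) and 0.0774 without Pea3 TKO replicate 2 (0.83). With the Y-linked covariate the log2 fold change dropped to 0.43 (adjusted p = 0.446), and in the Y-positive libraries alone it was 0.46 (adjusted p = 0.451).

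Lrig1 (ENSMUSG00000030029; chromosome 6, 94604529 to 94700158, minus strand) had 42.7, 60.6 and 68.1 CPM in the controls and 89.8, 82.9 and 78.4 CPM in the mutants. Every mutant sample was above every control, and the spread was wider among controls. Lrig1 rose from 57.2 ± 13.1 to 83.7 ± 5.7 CPM, a log2 fold change of 0.55 (SE 0.18), with an edgeR adjusted p of 0.0463, just under the threshold. It passed in 1 of the 6 fits without 1 library, the one without Control replicate 3 (log2 fold change 0.69, adjusted p = 0.0399). The other 5 fits gave an adjusted p between 0.0646 and 0.129, with log2 fold changes from 0.38 without Control replicate 1 to 0.59 without Pea3 TKO replicate 3. The Y-linked covariate gave 0.45 (adjusted p = 0.370) and the Y-positive libraries alone 0.47 (adjusted p = 0.397). Lrig1 shares 144 of its 5585 exonic bases with Slc25a26 on the opposite strand. The strand setting of the counting was not given in the sources used here, so reads from that stretch cannot be assigned to either gene.

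Lrig2 (ENSMUSG00000032913; chromosome 3, 104396418 to 104511918, minus strand) had 16.8, 33.9 and 30.2 CPM in the controls and 41.3, 48.1 and 41.1 CPM in the mutants. The groups did not overlap, at means of 27.0 ± 9.0 and 43.5 ± 4.0 CPM. Its log2 fold change of 0.69 (SE 0.25, 95% interval 0.14 to 1.24) did not pass, with an edgeR adjusted p of 0.0668. DESeq2 and limma-voom called it, at adjusted p = 0.0384 and 0.0364. Per length of annotated exon, Lrig1 made up 69.9 ± 0.6% of LRIG expression in Control and 65.8 ± 3.5% in Pea3 TKO. Every mutant share was below every control share, which was not tested and depends on the length used. The shares of Lrig3 and Lrig2 overlapped between the groups: Lrig3 made up 14.6 ± 3.1% and 17.9 ± 3.6%, and Lrig2 15.5 ± 2.9% and 16.3 ± 1.5%. Annotated exon and longest transcript were 5585 and 4951 bases for Lrig1, 11755 and 7099 for Lrig2, and 8347 and 4016 for Lrig3.

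**Figure D3:**
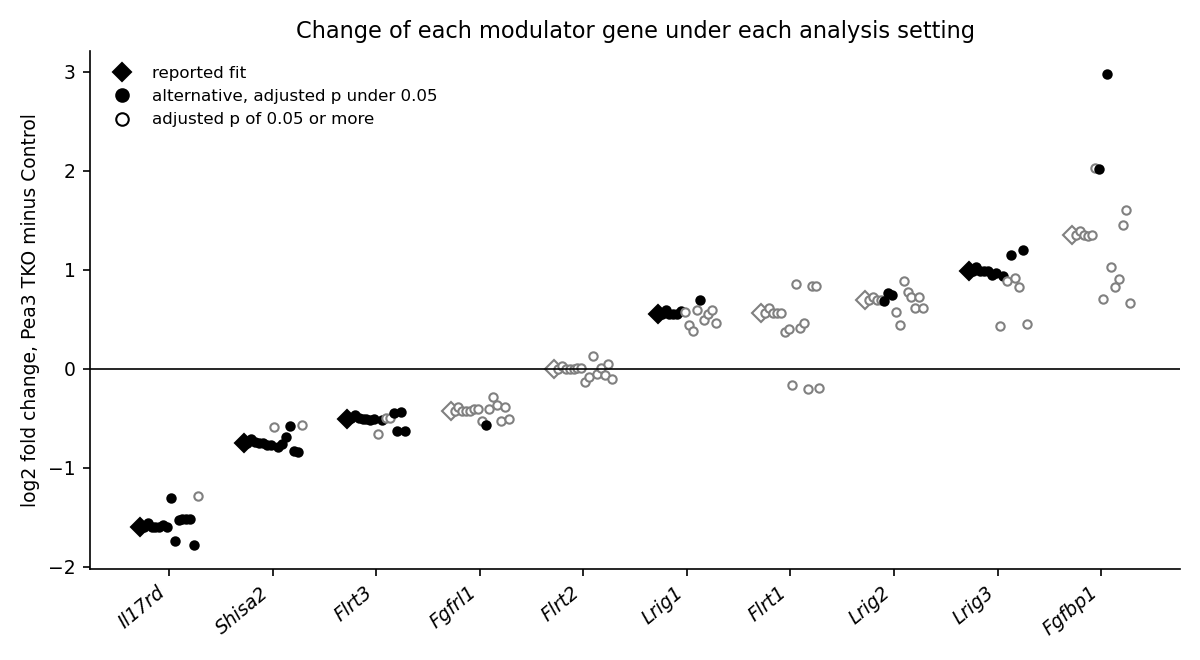
Log2 fold change (Pea3 TKO minus Control, y axis) of each modulator gene in the reported fit (diamond) and in each alternative (circles); filled symbols passed an adjusted p threshold of 0.05. Il17rd stayed between -1.78 and -1.29, Flrt2 lay on both sides of 0, and Fgfbp1 ranged from 0.66 to 2.98.

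Fgfrl1 (ENSMUSG00000008090; chromosome 5, 108692382 to 108706924, plus strand) encodes an FGF receptor without a tyrosine kinase domain, which can bind ligand as a decoy. Its level was 38.1, 49.0 and 57.0 CPM in the controls and 33.0, 40.8 and 33.7 CPM in the mutants. The groups overlapped through Control replicate 1, and the means were 48.1 ± 9.5 and 35.8 ± 4.3 CPM. The log2 fold change of -0.43 (SE 0.18, 95% interval -0.83 to -0.02) did not pass, with an edgeR adjusted p of 0.119. Without Control replicate 1 it passed, at -0.57 (adjusted p = 0.0422).

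Fgfbp1 (ENSMUSG00000048373; chromosome 5, 43978858 to 43981779, minus strand) encodes a secreted carrier that releases FGFs from heparan sulphate in the matrix and is known from stratified epithelia such as the epidermis. It was the most variable modulator in Control, with 31.6, 6.92 and 1.76 CPM in the controls and 52.4, 29.6 and 21.03 CPM in the mutants. Control replicate 1 lay above mutant replicates 2 and 3, and the control SD exceeded the control mean (13.4 ± 15.96 CPM against 34.4 ± 16.2). The log2 fold change was 1.35 (SE 0.76, 95% interval -0.36 to 3.05, edgeR adjusted p = 0.229). Without Control replicate 1 it was 2.98 and passed (adjusted p = 0.00424), and limma-voom with all 6 libraries gave 2.03 (adjusted p = 0.0560). Control replicate 1 also stood out among controls in markers of the surface epithelium: the 10 conjunctiva and epidermis markers summed to 2389 CPM there against 1265 and 1182 CPM in Control replicates 2 and 3. Krt15, a keratin of basal surface epithelium, had 720, 138 and 63.1 CPM in the controls and 4357, 3462 and 2212 CPM in the mutants. Within each group Fgfbp1 and the marker sum put the libraries in the same order, but in Pea3 TKO single markers did not all share it: Krt14 had 433, 651 and 746 CPM and Perp 776, 925 and 859. The part of surface epithelium content in the Fgfbp1 values was not tested.

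**Figure D4:**
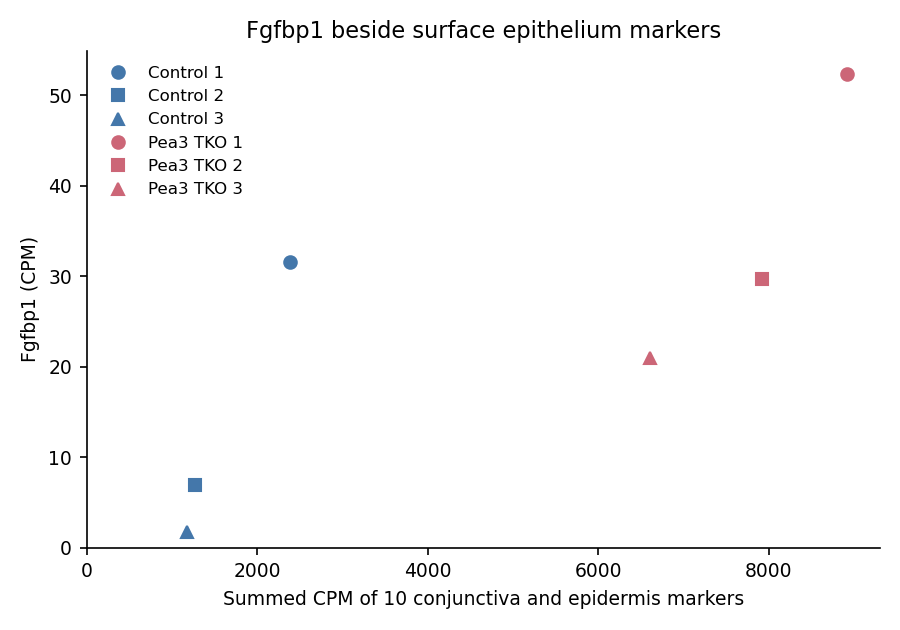
Fgfbp1 (CPM, y axis) against the summed CPM of 10 conjunctiva and epidermis markers (x axis), 1 point per library, with replicates by symbol and groups by colour. Control replicate 1 had the highest Fgfbp1 (31.6 CPM) and the highest marker sum (2389 CPM) of the 3 controls.

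Stretches upstream of the 5 modulators that passed the test are given here. The Pea3 factors bind DNA around an ETS core of GGAA, and whether they act at these stretches was not tested. Each is 190 bases read 5′ to 3′ on the strand of the gene, from RefSeq (GRCm38.p6), and leaves out the last 60 bases before the RefSeq start, where GENCODE places the start of some of these genes. Capitals mark GGAA on either strand (GGAA or TTCC). A RefSeq promoter was found for 9 of the 10 modulators, all but Flrt1.
Il17rd, chr14:27038751-27038940 (plus strand): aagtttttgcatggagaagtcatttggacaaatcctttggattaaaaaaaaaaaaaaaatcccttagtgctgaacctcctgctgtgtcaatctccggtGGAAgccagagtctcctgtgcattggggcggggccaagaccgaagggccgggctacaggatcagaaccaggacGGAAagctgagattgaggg
Shisa2, chr14:59625031-59625220 (plus strand): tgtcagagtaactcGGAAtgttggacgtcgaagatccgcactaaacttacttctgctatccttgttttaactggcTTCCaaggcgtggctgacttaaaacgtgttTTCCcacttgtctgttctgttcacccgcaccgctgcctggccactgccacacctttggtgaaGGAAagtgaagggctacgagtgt
Flrt3, chr2:140671537-140671726 (minus strand): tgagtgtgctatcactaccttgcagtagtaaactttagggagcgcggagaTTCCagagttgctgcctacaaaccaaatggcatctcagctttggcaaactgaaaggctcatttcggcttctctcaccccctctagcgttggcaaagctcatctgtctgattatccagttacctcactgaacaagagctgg
Lrig3, chr10:125965969-125966158 (plus strand): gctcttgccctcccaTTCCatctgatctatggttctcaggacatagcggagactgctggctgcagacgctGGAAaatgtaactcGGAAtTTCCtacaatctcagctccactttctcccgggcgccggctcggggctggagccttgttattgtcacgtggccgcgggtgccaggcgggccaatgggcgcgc
Lrig1, chr6:94700206-94700395 (minus strand): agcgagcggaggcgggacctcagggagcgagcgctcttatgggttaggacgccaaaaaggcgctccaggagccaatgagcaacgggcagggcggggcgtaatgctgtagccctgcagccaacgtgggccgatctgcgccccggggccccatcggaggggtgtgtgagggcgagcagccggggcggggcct
The core occurred 2 times in the stretch of Il17rd, 4 times in that of Shisa2, 1 time in that of Flrt3, 4 times in that of Lrig3 and 0 times in that of Lrig1. In the same stretch of modulators that did not pass, the core occurred 9 times for Fgfbp1, 4 for Flrt2, 3 for Lrig2 and 2 for Fgfrl1. It is too short to be selective, since 87.9% of 32851 RefSeq promoters hold it in the same window, with a median of 2 matches. The longer ETS core CCGGAAGT, searched on both strands (each match also holds GGAA), was found in none of the 9 stretches and in 1.22% of all promoters. Over the full 250 bases before the start it occurred in Fgfrl1 only, 48 bases before the start, and in 2.88% of all promoters. The RefSeq stretch of Fgfrl1 (chromosome 5, 108693979 to 108694168) lies inside the gene as GENCODE places it, from 108692382 to 108706924. A match describes letters only, and these windows cover a small part of the sequence that could control a gene.

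Levels of different genes were compared only per length, as CPM per kilobase of annotated exon. In Control, Flrt3 (73.4 ± 1.6 CPM per kb) and Flrt2 (66.9 ± 10.1) were highest and were not separated from each other, as their ranges overlapped. Shisa2 came next at 44.9 ± 3.2 CPM per kb, followed by Fgfrl1 at 17.3 ± 3.4 and Lrig1 at 10.2 ± 2.3, with Shisa2 and Fgfrl1 each above the next gene in every library. Fgfbp1 (5.94 ± 7.05) ran from 0.78 to 13.97 CPM per kb and overlapped Fgfrl1, Lrig1, Il17rd, Lrig2 and Lrig3. Il17rd (5.76 ± 1.04) was above Lrig2 in every library. Lrig2 (2.30 ± 0.77) and Lrig3 (2.09 ± 0.39) overlapped each other, and Flrt1 was lowest at 0.45 ± 0.14 CPM per kb. In Pea3 TKO Flrt2 (66.7 ± 5.3) lay above Flrt3 (51.8 ± 7.7) in every library. Il17rd, at 1.90 ± 0.38 CPM per kb, lay below Lrig2 (3.70 ± 0.34) and Lrig3 (4.14 ± 1.15), both of which it had exceeded in Control. The places of Il17rd, Fgfbp1, Lrig2 and Lrig3 in the Control order changed with the longest transcript as the length, and so did those of Fgfbp1, Il17rd, Lrig2 and Lrig3 without Control replicate 1.

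**Figure D5:**
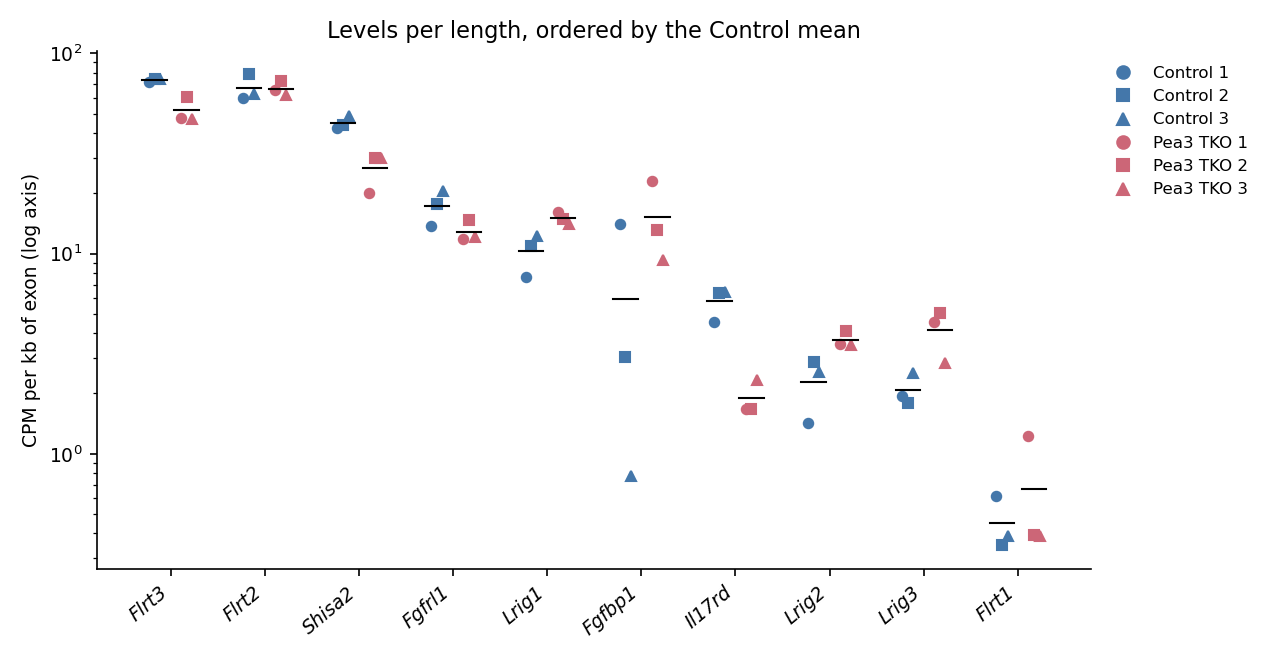
CPM per kilobase of exon (log axis) of the 10 modulator genes in each library, ordered by the Control mean; symbols give the replicate, colours the group and bars the group mean. Flrt3, Flrt2 and Shisa2 stand above the rest in Control at 42.1 CPM per kb or more, and Il17rd drops from 5.76 to 1.90 CPM per kb on average.

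For each modulator that passed, the genes with the most similar profile were those with the smallest root mean square difference of centred log2 CPM over the 6 libraries, among 10778 tested genes with a mean of at least 5 CPM. For Il17rd they were Rnps1 (difference 0.09) and Mtss1 (0.10), which fell by 1.62 and 1.70 on the log2 scale. Shisa2 ran closest to Fam98a (0.05) and Exo1 (0.06), and Flrt3 to Agap1 (0.05) and Sertad4 (0.06). Lrig1 ran closest to Sptan1 (0.05) and Kidins220 (0.06), and Lrig3 to Gmip (0.09) and Atp9a (0.09). These are descriptions of likeness over the libraries from which the modulators were also read.

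Of 12 Sprouty, Spred and dual-specificity phosphatase genes, which restrain Ras or inactivate MAP kinases, 11 were tested, 5 were lower in Pea3 TKO, beside 11.3% of all tested genes, 0 were higher and 6 did not pass, with a median log2 fold change of -0.69. The 5 were Spry4 (-2.78), Dusp6 (-2.04), Dusp4 (-1.64), Spry1 (-0.85) and Dusp9 (-0.67). The log2 fold changes of Il17rd and Shisa2 lay within the range of these 5, and that of Flrt3 was smaller than any of them. Among the receptors, Fgfr1 fell by 2.07 on the log2 scale, while Fgfr2 (0.54, edgeR adjusted p = 0.0430) and Fgfr3 (2.45, adjusted p = 0.0332) were called higher although their groups overlapped. Neither was called without Control replicate 2, Control replicate 3, Pea3 TKO replicate 1 or Pea3 TKO replicate 2, where 0 receptors were higher, and without Control replicate 1 there was 1. Of 22 FGF ligands 5 could be tested and 2 were lower, beside 11.3% of all tested genes. These were Fgf1 (39.4 ± 2.9 to 6.84 ± 3.36 CPM) and Fgf20, which had 3.16 to 4.49 CPM in Control and at most 0.29 in Pea3 TKO. Fgf10, named here after its values were seen, was at most 1.11 CPM in Control and at 0 in all 3 mutant libraries, too few counts to test.

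The partners that these proteins bind were mixed as well. Of 8 genes for FLRT partners all were tested, 3 rose and 1 fell, beside 13.6% higher and 11.3% lower over all tested genes. The netrin receptor genes Unc5c (log2 fold change 3.82) and Unc5b (1.09) and the latrophilin gene Adgrl2, listed as Lphn2 (0.90), rose, and Unc5a fell by 1.98 on the log2 scale. Of 6 receptor tyrosine kinases that LRIG proteins bind 5 were tested. Erbb2 rose from 270 ± 26 to 601 ± 34 CPM and Egfr from 46.8 ± 5.1 to 118.5 ± 22.1, Erbb3 fell from 263.5 ± 51.3 to 111.3 ± 8.9, and Erbb4 and Met did not pass. Among relatives of the modulators outside the list, 6 of 12 were tested, 4 were higher and 0 lower, beside the same shares over all tested genes. The 4 were Shisa5 (log2 fold change 1.37), Shisa4 (1.57), Il17rc (1.86) and Il17re (1.39), of which Il17rc and Il17re encode receptor chains of the Il17rd family. Shisa2 and Il17rd thus fell in the libraries in which these relatives rose.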

How the data were processed

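RNA-seq was performed on 3 Control and 3 Pea3 TKO samples of laser-captured lacrimal gland epithelium. RNA was amplified with the Ovation RNA-Seq System V2 and sequenced on HiSeq2500 from TruSeq libraries. The authors deposited raw read counts, with 1 table of gene symbols for each sample and no normalization. The submitters' processing notes name bcl2fastq 2.17, STAR 2.5.2b, featureCounts 1.5.0-p3, DESeq and the build mm10, without settings.

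Genes were filtered with filterByExpr of edgeR 4.0.16 (R 4.3.3), which kept 13087 of 23420, normalized by TMM and compared by genotype alone in the quasi-likelihood test, with Benjamini-Hochberg adjustment over all tested genes. SE is the absolute log2 fold change over the square root of F, and intervals are 95% intervals. CPM are TMM-normalized. Positions and exon lengths are from GENCODE M21 (GRCm38), promoters from RefSeq (GRCm38.p6). A few listed genes were found under older symbols. Within groups no pair of samples was the same library (chi-square per degree of freedom at least 16.04). Floors of 3 counts cover counting error only. The scripts were tested on simulated counts with known changes.

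The modulators and lists were chosen with earlier results of these data known. All modulators are named. Other names were drawn from the receptor, feedback inhibitor, Pea3 and LRIG partner lists, which are not all named in full. Up to 4 genes with the smallest p of other pathway lists could be named too. So could the 3 markers of highest mean CPM per cell type list, any defining marker at 0 in every library and the 2 nearest profiles. Krt14 was chosen after its values were seen. Alternatives were DESeq2 1.42.0, limma-voom (limma 3.58.1), other size factors and filters, the replicate number as a block, a Y-linked covariate, other gene lengths and leaving out each sample. Restriction to Y-positive libraries was added after the data were seen.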

Additional observations from a re-analysis of the deposited data

How the results depend on the processing

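Of the values recomputed under the alternatives, 307 stayed as reported (the same direction and side of the threshold, or a count within 1.5 times), 39 counts or orders moved further, 19 values lost and 6 gained a call, and 9 changed sign. With the Y-linked covariate 787 genes passed over the whole table, 0 modulators were higher and 1 lower, and the log2 fold changes were -0.66 for Flrt3, -0.59 for Shisa2, 0.45 for Lrig1, 0.43 for Lrig3 and -0.16 for Flrt1. In the same fit 1 ligand was lower, 0 receptors were higher, 3 feedback inhibitors were lower, 1 relative was higher, and 0 FLRT partners were lower. In the Y-positive libraries alone, chosen after the data were seen, 597 genes passed, 0 modulators were higher and 1 lower, with log2 fold changes of -1.29 for Il17rd, -0.57 for Shisa2, 0.47 for Lrig1, 0.46 for Lrig3 and -0.20 for Flrt1. There 1 ligand was lower, 0 receptors were higher, 3 feedback inhibitors were lower, 1 relative was higher, 1 FLRT partner was higher and 0 lower, and 0 LRIG partners were lower. The 1 modulator called lower in the Y-positive libraries was Flrt3, at a log2 fold change of -0.63, and not Il17rd. The covariate fit and the Y-positive fit have fewer samples or an added term that follows the groups, and beyond that the cause was not tested.

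Leaving out 1 library at a time gave 1948 to 3344 genes over the whole table, 0 to 2 modulators higher and 2 to 4 lower, 0 to 1 ligands higher, 0 to 2 receptors higher and 1 to 2 lower, and 2 to 4 FLRT partners higher. Log2 fold changes ranged from -0.20 to 0.85 for Flrt1, -0.081 to 0.12 for Flrt2, -0.63 to -0.44 for Flrt3, 0.38 to 0.69 for Lrig1, 0.83 to 1.20 for Lrig3, -0.57 to -0.29 for Fgfrl1 and 0.83 to 2.98 for Fgfbp1. The order of levels in Control kept 6 to 10 of the 10 places.

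DESeq2 and limma-voom each called 1 ligand higher. DESeq2 and the fit without a low-count filter called 2 receptors lower. Lrig2 passed in DESeq2 (0.69) and limma-voom (0.76), with an adjusted p from 0.0361 to 0.424 over its alternatives. Flrt2 was 0.032 with upper-quartile factors and 0.0022 with limma-voom. With the longest transcript as the length 6 of 10 places were kept.

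The replicate numbers showed no clear pairing. Same-numbered samples deviated together at r = 0.12, -0.04 and -0.02, and the other pairs at r from -0.09 to 0.13. With 3 samples per group these values cannot exclude a pairing. A replicate block left 3191 genes past the threshold in place of 3268, Lrig1 was lost (0.57, adjusted p = 0.0538), Lrig2 (0.74) and Fgfbp1 (2.02, adjusted p = 0.0151) passed, Flrt2 was 0.0025, and no other modulator changed its call.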
